A study of Mus musculus with 11 samples.

Results

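The lysophospholipid acyltransferases are enzymes that attach a fatty acid to a phospholipid that has lost one of its acyl chains. A list of 10 of their genes (Lpgat1, Lpcat1, Lpcat2, Lpcat3, Lpcat4, Mboat2, Mboat7, Lclat1, Agpat3 and Agpat5) was looked up by symbol among the 12787 genes with values, and 9 were found. Mboat2 had no value and was not analysed here. RNA was sequenced from the gonadal white adipose tissue (WAT) of 11 male C57Bl6/J mice that were all fed a 60% high fat diet (HFD) for 20 weeks. In the HFD control group, 5 mice received the diet with vehicle only. In the HFD + IMC group, 6 mice received the diet with 0.06% w/w iodomethylcholine (IMC), a small molecule that blocks the gut bacterial enzyme making trimethylamine from choline. The labels name no transgene or other genotype, and the submitters dropped 1 control sample after quality control. A matching feeding of male mice over 20 weeks began at 6 weeks of age, but the age of the sequenced mice is not itself stated. Each mouse gave 1 library, and mice are called by the numbers in their sample titles, 2 to 6 for HFD control and 7 to 12 for HFD + IMC.

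Membrane phospholipids are built in an initial round of synthesis and then remodelled by the Lands cycle. In this cycle a phospholipase A removes an acyl chain, which leaves a lysophospholipid, and an acyltransferase puts another acyl chain in its place. Each acyltransferase prefers certain head groups and fatty acids, and so these enzymes help to set how saturated the membranes of a cell are. The enzymes belong to 2 protein families, named AGPAT and MBOAT. Of the 9 genes with values, Lpcat3 and Mboat7 belong to the MBOAT family and the other 7 to the AGPAT family. The comparison of the groups asks how expression of these genes in WAT differed when the diet contained the inhibitor.

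The values are log2 CPM, the logarithm of the reads of a gene relative to the library's total after the authors scaled every library to the same upper quartile. Reads on the listed genes ranged from 22320022 to 23635249 in HFD control mice and from 22619505 to 25155366 in HFD + IMC mice, and the groups did not differ in this total beyond their spread (exact permutation test, two-sided, p = 0.156). A gene was called higher or lower when its Benjamini-Hochberg adjusted p over all 12787 genes was under 0.05 in limma, a linear model fitted to every gene. By this rule 40.9% of all genes were called, 20.0% as higher and 21.0% as lower in HFD + IMC mice. For 23.1% of all genes no value of either group lay within the range of the other. The genes were chosen from an earlier analysis in which their log2 CPM differences in this same comparison were known, and their differences are therefore given as a description with standard errors (SE) and without p-values.

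Among the acyltransferase genes, 4 were called higher in HFD + IMC mice, 4 were called lower and 1 was not called. Lpgat1, Lclat1, Lpcat3 and Agpat3 made up the higher group, Lpcat2, Mboat7, Lpcat4 and Agpat5 the lower group, and Lpcat1 was the gene without a call. The groups did not overlap for 6 of the 9 genes. The 9 differences ranged from -0.57 for Lpcat2 to 0.88 for Lpgat1 on the log2 scale. Their median was -0.08, beside -0.03 for all genes, and the median of their absolute sizes was 0.28, beside 0.17 for all genes. Of the MBOAT family, 1 gene was called higher and 1 lower. Of the AGPAT family, 3 were called higher, 3 lower and 1 was not called. Since the choice of the list used these results, nothing about the list is read from these counts.

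**Figure D1:**
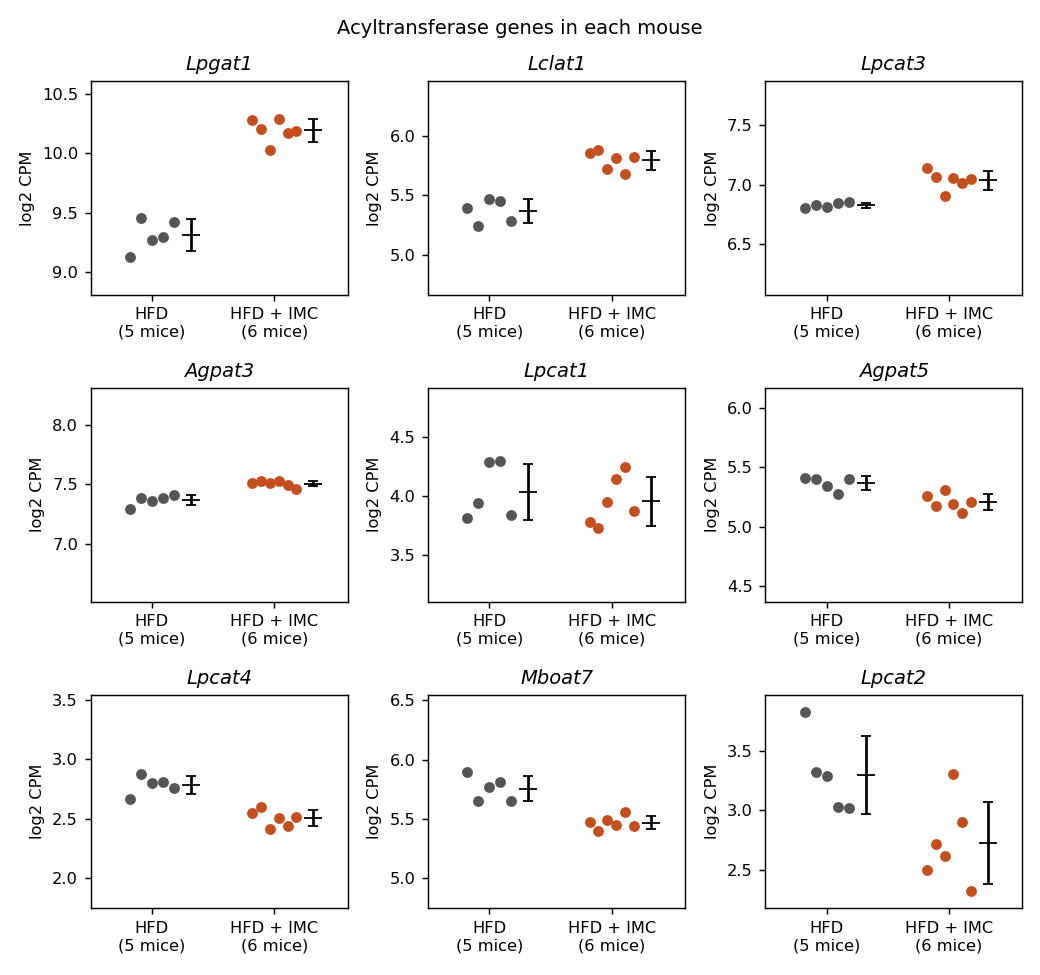
Log2 CPM of the 9 acyltransferase genes in each mouse, with 1 point per mouse (grey, HFD control; orange, HFD + IMC) and the group mean with its SD as a bar beside the points. All panels span the same number of log2 units, so that heights can be compared. Lpgat1 shows the widest gap between the groups, 0.57, and the Lpcat1 points of the groups lie in the same range.

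The stretch upstream of a gene's start is shown for 3 of the genes, as the reference for what lies before a gene called lower (Lpcat2) and before 2 genes called higher (Lclat1 and Lpcat3). They were taken because the gene was called and lies on the plus strand. In addition, its stretch had to open with at least 100 bases that come before any annotated exon of the gene. Neither stretch of Lpgat1 did so. The sequences are those of RefSeq on GRCm38.p6, 5′ to 3′ on the plus strand, which is the strand of all 3 genes. Capitals mark the letters of GGGCGG (a GC box), CCAAT and TATAAA on either strand, so that a match on the minus strand appears as its reverse complement.
Lpcat2, chr8:92855083-92855332: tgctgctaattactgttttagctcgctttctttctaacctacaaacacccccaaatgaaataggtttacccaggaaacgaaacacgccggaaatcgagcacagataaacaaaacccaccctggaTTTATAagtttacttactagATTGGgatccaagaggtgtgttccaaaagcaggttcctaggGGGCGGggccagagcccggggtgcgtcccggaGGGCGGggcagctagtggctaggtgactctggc
Lclat1, chr17:73107735-73107984: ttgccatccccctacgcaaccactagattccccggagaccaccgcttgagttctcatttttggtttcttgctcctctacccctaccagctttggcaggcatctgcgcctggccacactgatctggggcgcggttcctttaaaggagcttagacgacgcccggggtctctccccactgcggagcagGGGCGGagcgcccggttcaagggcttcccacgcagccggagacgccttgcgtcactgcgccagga
Lpcat3, chr6:124662854-124663026: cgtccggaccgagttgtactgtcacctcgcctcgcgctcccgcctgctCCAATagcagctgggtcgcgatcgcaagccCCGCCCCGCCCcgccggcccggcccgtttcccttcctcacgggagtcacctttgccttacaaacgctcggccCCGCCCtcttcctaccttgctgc
The Lpcat2 stretch held 2 GC boxes, 1 TATAAA on the minus strand at positions -126 to -121, counted back from the start, and 1 CCAAT on the minus strand. The Lclat1 stretch held 1 GC box and no CCAAT or TATAAA. In the Lpcat3 stretch, 2 of the 3 GC boxes share a base.

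The 250 bases before the start were found in the RefSeq table for 8 of the 9 genes, Agpat5 being the exception, and Lpgat1 had 2 starts. Annotated exons of the gene itself covered all 250 bases for Lpcat4 and Mboat7. They covered 190 and 67 bases for the starts of Lpgat1, 159 for Agpat3, 77 for Lpcat3 and 34 for Lpcat1. The matches and GC contents below include such exonic bases, and only the Lpcat2 and Lclat1 stretches held none. Exons here are those of GENCODE vM21. In RefSeq the Lpcat2 gene begins at chr8:92855313, so the last bases of its stretch lie inside that gene. GGGCGG was found on either strand before 7 of these 8 genes, the exception being Agpat3, and in 32.7% of all 32851 promoter stretches of the same length in the table. CCAAT was found before Lpcat2 and Lpcat3 (33.8% of all stretches) and TATAAA before Lpcat2 (12.4%). Neither CACGTG nor AGGTCA was found before any of the 8 genes, where 6.02% and 14.0% of all stretches held them. A pair of AGGTCA motifs on the same strand with 4 bases between them, an arrangement known from sites of the liver X receptor, was in none of the 8 and in 0.0152% of all stretches. GC content was 75.2% and 80.4% before the starts of Lpgat1, 79.6% before Lpcat4, 70.0% before Lpcat3 and 62.4% before Lclat1. It was 60.8% before Lpcat1, 59.6% before Agpat3, 58.0% before Mboat7 and 51.2% before Lpcat2. The median over all stretches was 52.4%, and high and low contents occurred before genes called in either direction. These are matches of letters in a short window and do not show that a factor binds there.

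Lpgat1 had the largest difference of the 9 genes. LPGAT1 is a membrane enzyme of the endoplasmic reticulum that acylates lysophosphatidylglycerol and lysophosphatidylethanolamine, and its gene lies at chr1:191717834-191784255 on the plus strand (GRCm38, GENCODE vM21). In HFD control mice 2 to 6 the level was 9.12, 9.46, 9.27, 9.29 and 9.42 log2 CPM. HFD + IMC mice had a lowest value of 10.02, a median of 10.20 and a highest value of 10.29. Every HFD + IMC mouse lay above every HFD control mouse, with a gap of 0.57 between the groups and an SD of 0.13 in HFD control and 0.10 in HFD + IMC mice. The mean difference was 0.88 on the log2 scale (SE 0.07), or 1.84-fold, and 2.60% of all genes differed by at least as much in either direction. It lay from 0.83 to 0.92 when any 1 mouse was left out. Between 12390 and 31103 reads per mouse stood behind these values.

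Lclat1 had the next widest gap between the groups. LCLAT1 acylates lysocardiolipin and lysophosphatidylinositol at the endoplasmic reticulum and its associated membranes, and the gene is at chr17:73107985-73243368 on the plus strand. The values of the HFD control mice were 5.40, 5.24, 5.47, 5.45 and 5.28 log2 CPM. Those of the HFD + IMC mice had a lowest value of 5.68, a median of 5.82 and a highest value of 5.89. The groups were separated by 0.21, and the difference between means was 0.43 (SE 0.06), or 1.35-fold. A difference of this size or more was found for 17.3% of all genes.

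Lpcat3 encodes the enzyme that places polyunsaturated fatty acids such as arachidonate and linoleate into phosphatidylcholine, and it is a known target of the liver X receptors. The gene is at chr6:124663027-124704418 on the plus strand. HFD control mice were close together at 6.80, 6.83, 6.81, 6.84 and 6.85 log2 CPM, with an SD of 0.02. HFD + IMC mice ranged from 6.90 through a median of 7.05 to 7.14, with an SD of 0.08. Their lowest mouse, number 9, was 0.05 above the highest HFD control mouse. The difference was 0.21 (SE 0.04), or 1.16-fold, a size that 42.9% of all genes reached. Its exons share 334 bases with Emg1 on the opposite strand, and the strand setting of the read count is not given in the sources used here, so reads of the genes may be mixed.

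Agpat3 encodes a lysophosphatidic acid acyltransferase that also acts on other lysophospholipids and favours polyunsaturated chains. It lies at chr10:78269178-78352489 on the minus strand. The HFD control values were 7.29, 7.38, 7.36, 7.39 and 7.41 log2 CPM, and the HFD + IMC values ran from 7.46 through a median of 7.51 to 7.53. The ranges lay 0.05 apart. With SDs of 0.04 and 0.02, the within-group spread of Agpat3 was smaller than that of all but 0.25% of the genes, and the difference of 0.14 (SE 0.04, 1.10-fold) was reached or exceeded in size by 58.3% of all genes.

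Lpcat2 had the largest difference among the genes called lower and the widest spread between mice. LPCAT2 is an acyltransferase of inflammatory cells that can also make platelet-activating factor, and its gene is at chr8:92855339-92919279 on the plus strand. HFD control mice had 3.83, 3.33, 3.29, 3.03 and 3.02 log2 CPM. HFD + IMC mice had a lowest value of 2.32, a median of 2.67 and a highest value of 3.31. The ranges overlapped, since HFD + IMC mouse 10 lay above 3 of the 5 HFD control mice. The difference between means was -0.57 (SE 0.18), 0.672-fold, with an SD of 0.33 in HFD control and 0.35 in HFD + IMC mice. Without HFD control mouse 2, the highest of all, the difference was -0.44 and Lpcat2 was no longer called, while it was called with any other mouse left out. Only 121 to 316 reads per mouse were counted, and its within-group SD of 0.340 was larger than that of 90.8% of the genes. Lpcat2 shares 287 exonic bases with an antisense gene, Gm45472, with the same limit on the reads as for Lpcat3.

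Mboat7 encodes the enzyme that places arachidonate into lysophosphatidylinositol. The gene lies at chr7:3677789-3693523 on the minus strand. Its levels in HFD control mice were 5.89, 5.65, 5.77, 5.81 and 5.66 log2 CPM. In HFD + IMC mice they ran from 5.40 through a median of 5.46 to 5.56. All HFD + IMC mice were below all HFD control mice, by a gap of 0.09. The difference was -0.29 (SE 0.05), or 0.820-fold. Mboat7 shares 277 exonic bases with Tsen34 on the opposite strand, with the same limit on the reads as for Lpcat3.

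Lpcat4 encodes an acyltransferase with a preference for lysophosphatidylethanolamine and lysophosphatidylcholine, and it lies at chr2:112239468-112247111 on the plus strand. HFD control mice had 2.67, 2.87, 2.80, 2.81 and 2.76 log2 CPM, and HFD + IMC mice ran from 2.42 through a median of 2.51 to 2.60. The ranges were 0.07 apart and the difference was -0.28 (SE 0.08), or 0.825-fold. With 119 to 171 reads per mouse, counting error alone would give an SD of 0.120, above the 0.0722 observed within groups, so the closeness of the mice is not taken as a measure of precision.

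Agpat5 and Lpcat1 were, beside Lpcat2, the genes whose ranges overlapped between the groups. Agpat5 encodes a mitochondrial lysophosphatidic acid acyltransferase and lies at chr8:18846277-18891361 on the plus strand. Its values were 5.41, 5.40, 5.34, 5.27 and 5.41 log2 CPM in HFD control mice and ran from 5.11 through a median of 5.20 to 5.31 in HFD + IMC mice. HFD control mouse 5 lay below HFD + IMC mouse 9, so the ranges overlapped by 0.04 although the gene was called lower, with a difference of -0.16 (SE 0.05) or 0.896-fold. An antisense gene, Gm35934, covers 2043 of its exonic bases, with the same limit on the reads as for Lpcat3. Lpcat1 encodes the enzyme best known for making the saturated phosphatidylcholine of lung surfactant, and lies at chr13:73467197-73516422 on the plus strand. HFD control mice had 3.82, 3.94, 4.29, 4.29 and 3.84 log2 CPM, and HFD + IMC mice ran from 3.73 through 3.91 to 4.24. The difference of -0.08 (SE 0.12) had a 95% confidence interval from -0.34 to 0.17, which includes differences as large as those of Mboat7 and Lpcat4.

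**Figure D2:**
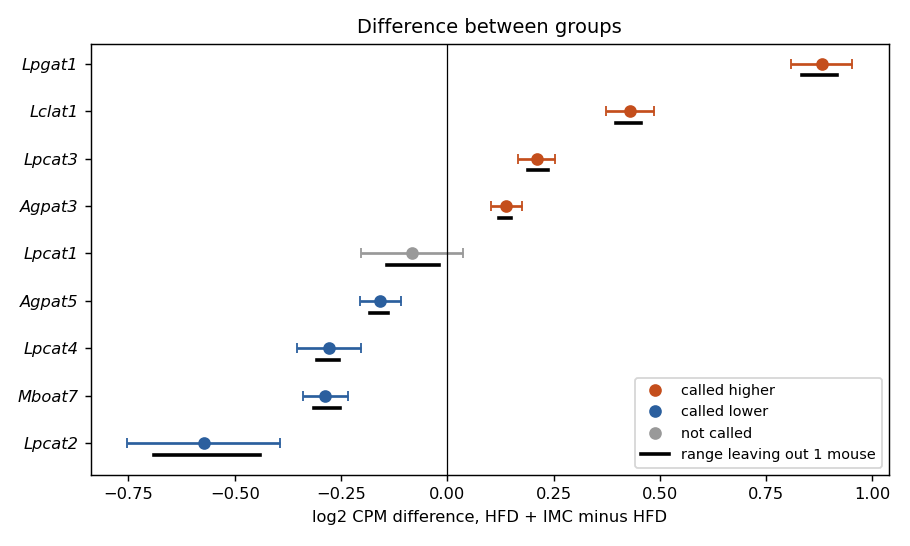
Difference in mean log2 CPM, HFD + IMC minus HFD control, for the 9 genes. Points carry the SE as bars, colours give the call, and the black line under each point is the range when each mouse was left out in turn. Lpgat1 stands at 0.88 and Lpcat2 at -0.57, and no black line crosses 0. The black lines are not confidence intervals, and the 95% confidence interval of Lpcat1, from -0.34 to 0.17, includes 0.

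Levels of different genes were compared as CPM per kilobase of the longest principal transcript in GENCODE vM21. In HFD control mice the order was Lpgat1 (88.2 ± 8.09 CPM per kilobase, SD, n = 5), Lpcat3 (49.8 ± 0.748), Agpat3 (27.6 ± 0.836), Mboat7 (18.8 ± 1.38) and Lclat1 (9.27 ± 0.655). The ranges of these 5 genes did not overlap between neighbours. Below them were Lpcat1 (4.51 ± 0.752 CPM per kilobase), Agpat5 (3.83 ± 0.154), Lpcat2 (3.58 ± 0.889) and Lpcat4 (3.03 ± 0.158), and each of these overlapped the next in the order. In HFD + IMC mice Lpgat1 stood at 162 ± 10.6 CPM per kilobase (SD, n = 6), Lpcat3 at 57.7 ± 3.13 and Agpat3 at 30.4 ± 0.504. Mboat7 at 15.4 ± 0.579 and Lclat1 at 12.5 ± 0.680 were closer together than in HFD control mice, still without overlap, and Lpcat2 at 2.41 ± 0.622 was last, overlapping Lpcat4 at 2.5 ± 0.119. The order depends on the transcript used. With the shortest coding transcript of each gene, Agpat3 moved above Lpcat3 (125 against 49.8 CPM per kilobase in HFD control mice, and 138 against 57.7 in HFD + IMC mice), and Agpat5 was at 14.5 and 13.0.

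**Figure D3:**
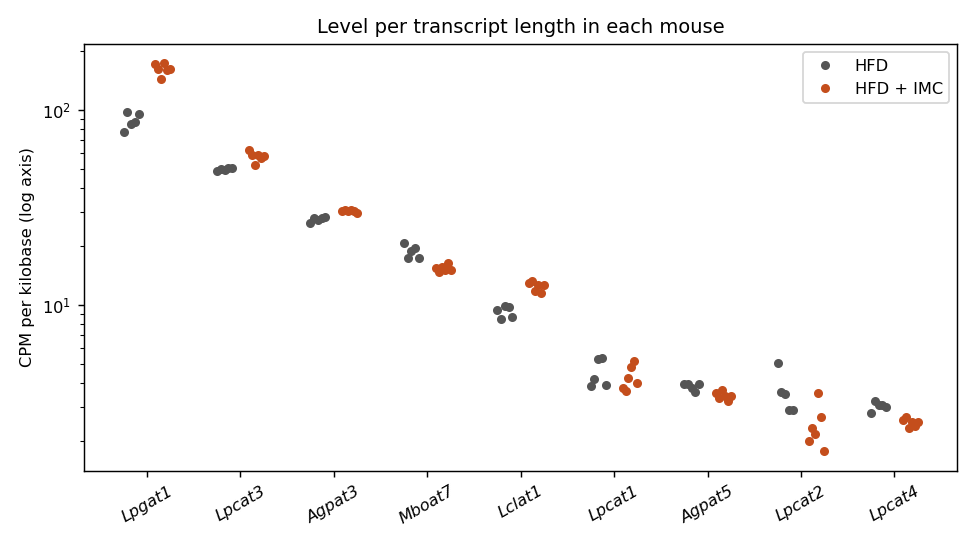
Level of each acyltransferase gene in CPM per kilobase of its longest principal transcript, on a log axis, with 1 point per mouse (grey, HFD control; orange, HFD + IMC). Genes are ordered by their mean in HFD control mice, from Lpgat1 at 88.2 to Lpcat4 at 3.03.

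Within each mouse, shares of the summed level show how the mix of these transcripts differed, free of the scaling of the libraries. Lpgat1 made up 42.2% ± 2.49 (SD, n = 5) of the CPM per kilobase of the 9 genes in the HFD control group, against 55.8% ± 1.01 (SD, n = 6) in HFD + IMC mice. The ranges, 39.0% to 45.0% and 54.0% to 56.9%, did not overlap. The sum of all 9 genes was 209 ± 7.06 CPM per kilobase in HFD control and 291 ± 14.0 in HFD + IMC mice, and without Lpgat1 it was 120.4 ± 1.63 and 128.5 ± 3.48. Most of the summed difference was thus that of Lpgat1. Of the 4 Lpcat genes together, Lpcat3 held 81.7% ± 1.32 in HFD control and 86.3% ± 1.57 in HFD + IMC mice, again without overlap (80.6% to 83.8% and 84.4% to 88.2%). These shares depend on the transcript used. With the shortest coding transcripts Lpgat1 held 49.4% in HFD control and 62.7% in HFD + IMC mice. Lpcat3 then held 76.4% and 81.7%, and its ranges nearly met (74.7% to 79.1% and 79.2% to 84.3%). The ratio of Lpcat3 to Mboat7, the MBOAT enzymes of phosphatidylcholine and of phosphatidylinositol, was 2.66 ± 0.219 in HFD control and 3.75 ± 0.280 in HFD + IMC mice. The ratio of Lpcat3 to Lpcat2 was 14.5 ± 3.22 and 25.1 ± 6.01, with ranges of 9.65 to 17.6 and 16.6 to 32.7 that overlapped.

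The tissue label was checked against marker genes. All 12 adipocyte markers had values, and all 12 were called higher in HFD + IMC mice, with a summed level of 9929 to 14158 CPM in HFD control and 19619 to 24070 CPM in HFD + IMC mice. All 14 macrophage markers had values, 0 were called higher and 11 lower, with sums of 12399 to 16738 CPM and 6629 to 10589 CPM. Of the 8 mast cell markers 7 had values, and all 7 were called lower (507 to 1157 CPM and 161 to 326 CPM). Of 10 progenitor and fibroblast markers 6 were called lower (9283 to 11857 CPM and 7211 to 9360 CPM). For mesothelial cells 6 of 8 markers had values and 2 were called lower (240 to 330 CPM and 110 to 269 CPM), and for endothelial cells 1 of 8 was called higher (458 to 647 CPM and 536 to 746 CPM). Skeletal muscle markers had values for 3 of 10, of which 2 were called higher (13.2 to 19.0 CPM and 31.1 to 56.9 CPM). T and B lymphocyte markers had values for 1 of 10 (Cd2, 4.91 to 13.4 CPM and 3.07 to 6.21 CPM) and neutrophil markers for 2 of 8 (20.9 to 27.0 CPM and 23.9 to 29.7 CPM), with 0 called. No marker with values was at 0. In bulk tissue, fewer cells of a type and less RNA per cell cannot be told apart.

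Lpcat2 and the macrophage markers were lower in the same group. In HFD control mice, mouse 2 had both the highest Lpcat2 level and the highest macrophage sum (16738 CPM), and mouse 6 had the lowest of both (3.02 log2 CPM and 12399 CPM). In HFD + IMC mice, mouse 10 was highest in both (3.31 log2 CPM and 10589 CPM) and mouse 12 lowest in both (2.32 log2 CPM and 6629 CPM). Between these extremes the orders differed. HFD + IMC mouse 9 had a higher macrophage sum (10064.5 CPM) than mice 8 and 11 (7744 and 9985 CPM). Its Lpcat2 level was lower (2.62 against 2.71 and 2.90 log2 CPM). HFD control mouse 4 had a higher sum than mouse 3 (14904 against 12950 CPM) but less Lpcat2 (3.29 against 3.33 log2 CPM). That was the only change of order among HFD control mice. The Lpcat2 values of mice 4 and 3 rest on 233 and 234 reads, and those of mice 9 and 8 on 137 and 149. Counting error alone would give an SD of 0.0944 in HFD control and 0.114 in HFD + IMC mice. Neither order can therefore be told from counting error. The macrophage sums of mice 9 and 11 were close together. Lpgat1 and the adipocyte markers were higher in the same group. HFD control mouse 2 was lowest in both (9.12 log2 CPM and 9929 CPM). Among HFD control mice the orders of Lpgat1 and the adipocyte sum differed only for mice 3 and 6. Their Lpgat1 levels were 9.46 and 9.42 log2 CPM and their adipocyte sums 14001 and 14158 CPM. Among HFD + IMC mice the lowest Lpgat1 level was that of mouse 9 and the lowest adipocyte sum that of mouse 11. The part of these cell types in the differences of Lpcat2 and Lpgat1, and of the other acyltransferase genes, was not tested.

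**Figure D4:**
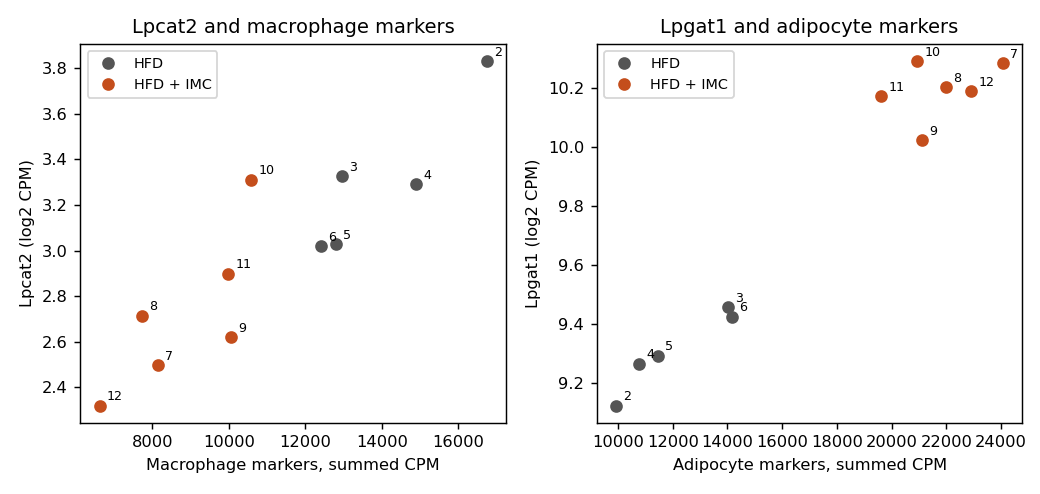
Left, Lpcat2 (log2 CPM) against the summed CPM of 14 macrophage markers, and right, Lpgat1 (log2 CPM) against the summed CPM of 12 adipocyte markers. Each point is a mouse with its number (grey, HFD control; orange, HFD + IMC). The groups are apart on the horizontal axis of both panels, and on the vertical axis only for Lpgat1.

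Genes whose values ran closest to each acyltransferase gene apart from the group difference were found by Pearson's r over the 11 mice, with each gene centred on its mean in each group. All points share their library and its depth, and the highest r among 12787 genes in 11 mice is high by selection, so r is given as a description. Lpgat1 was closest to Paqr9 (r = 0.937), Wbscr27 (0.933) and Slc5a7 (0.927). Lpcat2 was closest to Plxna1 (0.934), Mthfs (0.922) and Ltbp2 (0.917), and Lpcat3 to Cdc27 (0.959), Rasa2 (0.937) and Fam118a (0.931). For Lclat1 the closest were Hdac2 (0.946), Tgif2 (0.929) and Pnrc2 (0.915), and for Mboat7 they were 6330418K02Rik (0.930), Serpinb1a (0.927) and Tmx1 (0.911). Lpcat1 was followed most closely by Col5a3 (0.963), Parp1 (0.927) and Dnm3 (0.925). Lpcat4 had Cobll1 (0.934), Cyp2j9 (0.922) and Mettl15 (0.902). Its within-group SD of 0.0722 was below the 0.120 of counting error, so these r may rest on counting error alone. Agpat3 had Krt222 (0.912), C130074G19Rik (0.880) and Ephx3 (0.863), and Agpat5 had Lyrm4 (0.888), Rpn2 (0.886) and Rpp40 (0.883). No gene was among the closest 3 of more than 1 acyltransferase gene.

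The genes around these enzymes were read from 6 lists with 98 genes, of which 81 had values. Among the 81, 29 were called higher in HFD + IMC mice, 20 were called lower and 32 were not called, and the median difference was 0.03. Of all genes, 40.9% were called, 20.0% as higher and 21.0% as lower. The counts in the lists below stand beside these shares, and nothing about a list is read from them. All adjusted p-values below are from limma with Benjamini-Hochberg adjustment over all genes. The lists were chosen with earlier results of these data known, and the genes named were picked by their p or their call. The adjusted p-values therefore describe the named genes and are no independent test of them or of the lists.

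The other glycerolipid acyltransferases make the lysophosphatidic acid and phosphatidic acid from which glycerolipids are built. Of 9 with values, 4 rose and 2 fell in HFD + IMC mice. Gpam, the mitochondrial glycerol-3-phosphate acyltransferase, rose by 0.89 (SE 0.08, adjusted p = 2.67e-05) and Gpat3, its counterpart in the endoplasmic reticulum, by 1.04 (SE 0.12, adjusted p = 5.34e-05). Gnpat, the peroxisomal enzyme that begins ether lipid synthesis, rose by 0.54 (SE 0.06, adjusted p = 6.38e-05), and Agpat2, the lysophosphatidic acid acyltransferase needed for normal fat tissue, by 0.66 (SE 0.16, adjusted p = 0.00505). Agpat4 fell by 0.50 (SE 0.08, adjusted p = 0.000404) and Tmem68 fell by 0.20 (SE 0.07, adjusted p = 0.0333), but the call of Tmem68 was lost in 7 of the 11 fits that left out 1 mouse.

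The phospholipases A and lysophospholipases provide or remove the lysophospholipids that the acyltransferases use. Of 22 with values, 10 rose and 8 fell, with a median difference of -0.03. Gdpd1, a lysophospholipase D, fell by 0.67 (SE 0.07, adjusted p = 3.64e-05). Pnpla8, a calcium-independent phospholipase A of mitochondria and peroxisomes, rose by 0.47 (SE 0.06, adjusted p = 5.93e-05). Plaat3, the main phospholipase A2 of adipocytes, rose by 0.98 (SE 0.13, adjusted p = 0.000144).

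Lysophospholipids also act as signals through receptors, and lipid phosphatases end the signal. Of 12 such genes with values, 5 rose and 2 fell. The lipid phosphate phosphatase Plpp3 rose by 0.46 (SE 0.05, adjusted p = 4.86e-05), Plpp1 by 0.29 (SE 0.06, adjusted p = 0.00195) and the related Plppr4 by 1.28 (SE 0.20, adjusted p = 0.000374). Among the receptors of lysophosphatidic acid, Lpar4 rose by 0.55 (SE 0.13, adjusted p = 0.00393) and Lpar3 by 0.69 (SE 0.26, adjusted p = 0.0468), while Lpar1 fell by 0.30 (SE 0.11, adjusted p = 0.0350) and Lpar2 fell by 0.44 (SE 0.15, adjusted p = 0.0302). The calls of Lpar1, Lpar2 and Lpar3 were lost in 8, 7 and 6 of the 11 fits that left out 1 mouse, and that of Lpar3 also in 3 of the 8 other settings.

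Of 22 genes of de novo phospholipid synthesis with values, 5 rose, 3 fell and 14 were not called. Chpt1, the cholinephosphotransferase that completes phosphatidylcholine, rose by 0.78 (SE 0.09, adjusted p = 6.07e-05). Lpin1, a phosphatidic acid phosphatase, rose by 0.74 (SE 0.11, adjusted p = 0.000232) and Pemt, which makes phosphatidylcholine from phosphatidylethanolamine, by 0.60 (SE 0.09, adjusted p = 0.000241). Cds1, a CDP-diacylglycerol synthase, rose by 0.63 (SE 0.19, adjusted p = 0.0167) and Selenoi, an ethanolaminephosphotransferase, by 0.16 (SE 0.05, adjusted p = 0.0271). Cept1, the choline and ethanolamine phosphotransferase, fell by 0.28 (SE 0.06, adjusted p = 0.00196), Cdipt, the phosphatidylinositol synthase, fell by 0.20 (SE 0.04, adjusted p = 0.00205) and Pisd, the phosphatidylserine decarboxylase, fell by 0.12 (SE 0.04, adjusted p = 0.0461). Selenoi lost its call in 6 and Pisd in 8 of the 11 fits without 1 mouse, and Pisd also with median-of-ratios or TMM scaling or no variance trend, and Selenoi with total-count scaling.

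The acyl-CoA that the acyltransferases consume is made by the long chain acyl-CoA synthetases. Of 6 with values only Acsl1, the main form of adipocytes, passed the test, with a rise of 0.91 (SE 0.11, adjusted p = 8.60e-05), while Acsl5 differed by -0.16 (SE 0.06, adjusted p = 0.0509) and the fatty acid transporter Slc27a4 by 0.05 (SE 0.05, adjusted p = 0.415). Among the liver X receptors, their partner and known targets, 4 of 10 rose and 5 fell, with a median difference of -0.05. Srebf1, a regulator of fatty acid synthesis, rose by 0.79 (SE 0.10, adjusted p = 8.95e-05), Rxra, the partner receptor, by 0.35 (SE 0.06, adjusted p = 0.000773), Nr1h3 by 0.16 (SE 0.06, adjusted p = 0.0340) and the cholesterol exporter Abca1 by 0.16 (SE 0.06, adjusted p = 0.0491). Apoe fell by 0.38 (SE 0.09, adjusted p = 0.00407), the exporter Abcg1 fell by 0.29 (SE 0.08, adjusted p = 0.0163), Pltp fell by 0.25 (SE 0.08, adjusted p = 0.0203), Smpdl3a fell by 0.23 (SE 0.07, adjusted p = 0.0191) and the receptor Nr1h2 fell by 0.19 (SE 0.05, adjusted p = 0.0160). Nr1h3 lost its call in 6 and Abca1 in 9 of the 11 fits without 1 mouse, and both lost it when libraries were scaled by their total reads or the variance trend was left out. Pltp lost its call only without HFD control mouse 5 (adjusted p = 0.0518). Lpcat3, with its difference of 0.21, stood beside known targets of the receptor that were called in both directions. A part of the receptors in the difference of Lpcat3 was not tested.

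**Figure D5:**
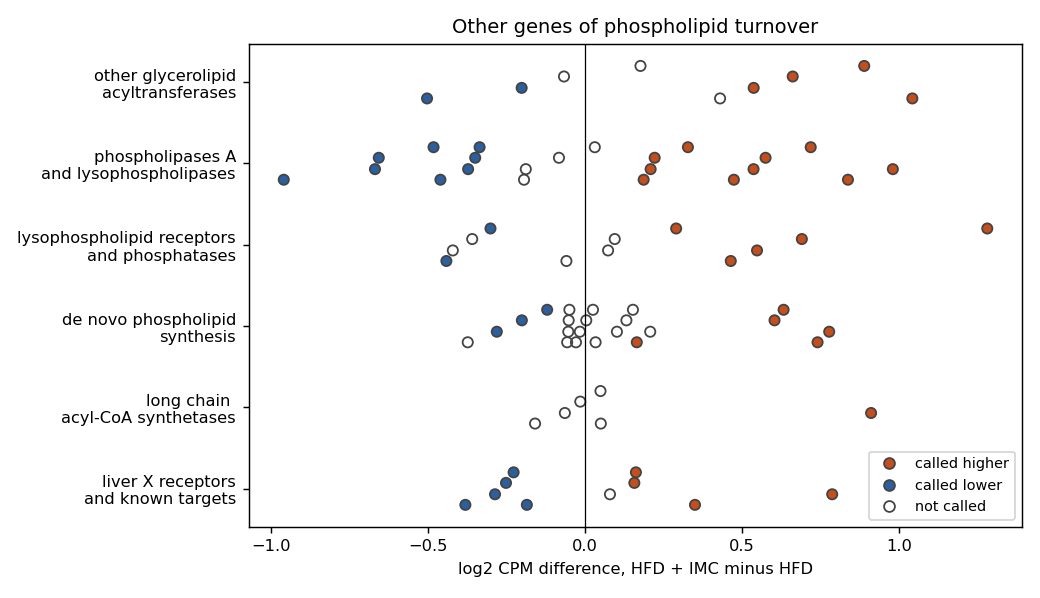
Log2 CPM difference, HFD + IMC minus HFD control, for the 81 genes of the 6 lists around the acyltransferases, with 1 point per gene (orange, called higher; blue, called lower; open, not called). Vertical offsets within a list only separate the points. Calls lie on both sides of 0 in 5 of the 6 lists, and the synthetases have a single call, Acsl1.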

How the data were processed

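The authors made directional mRNA libraries, used Trim Galore for trimming and STAR for alignment (mm10, UCSC transcripts), counted reads per gene, filtered low transcripts and scaled libraries by the upper quartile in edgeR. The deposited values are log2 CPM of 12787 genes in 11 mice. The table also holds the log2 fold change, mean log2 CPM, likelihood-ratio score, p-value and FDR of the authors' own comparison as deposited, which were not used here.

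Groups came from the sample labels. The deposited log2 CPM were compared with limma 3.58.1 (R 4.3.3, lmFit, eBayes with trend, no further filter or added constant) and Benjamini-Hochberg adjustment. The step was also run on simulated reads with 200 changed genes and the same dispersion for every gene. Far more genes were called in these data, so the simulated run does not vouch for the calls here. Whole reads were recovered from the steps of CPM (100% of values, tolerance 0.1 reads) and served depth and alternative scalings; intervals and SDs from reads cover counting error only. In all 11 mice a read was worth 0.0403 to 0.0450 CPM. Alternatives were each mouse left out, log2(CPM + 1), at least 1 CPM in every mouse, robust eBayes, no trend, voom, and total-count, median-of-ratios and TMM scaling. Locus coordinates and transcript lengths are from GENCODE vM21 (GRCm38), the build of mm10, and 8 genes were matched by an older symbol.

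The members and lists were chosen with earlier results of these data known. Genes named are all members, the 3 genes of each pathway list with the smallest p, the called genes of a list where 5 or fewer were called in a direction, and the 3 genes closest to each member by r.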

Additional observations from a re-analysis of the deposited data

How the results depend on the processing

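Under all 8 other settings the 9 acyltransferase genes kept their direction and their call, with differences of 0.85 to 0.89 for Lpgat1 and -0.60 to -0.51 for Lpcat2. With each mouse left out in turn, 4 of the genes were called higher in every case and 3 to 4 lower, the change being Lpcat2 without HFD control mouse 2 (difference -0.44). The leave-one-out counts were 1 to 2 for other glycerolipid acyltransferases that fell, 0 to 3 for lysophospholipid receptors and phosphatases that fell, 0 to 1 for long chain acyl-CoA synthetases that fell, 2 to 4 for liver X receptors and targets that rose, and 4299 to 5125 for all genes. Total-count scaling gave 1 synthetase that fell (0 otherwise reported) and 2 liver X receptors and targets that rose, and leaving out the variance trend also gave 2. Total-count scaling moved the calls over all genes to 2203 higher and 3261 lower, beside 2556 and 2680, and the median difference of all genes to -0.06. The causes of these changes were not tested. No paired analysis was possible because the labels do not match mice of HFD control to mice of HFD + IMC. The labels also name no cage, so the mice were treated as independent and a cage effect was not tested. Depth limits Lpcat2 and Lpcat4, with 119 to 316 reads per mouse, more than the other genes.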
